A study of Mus musculus with 9 samples.

Results

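CHD7 peaks that lay within the body of a protein-coding gene, but well away from any of its starts, were examined in CP cells. They were the peaks whose midpoint fell inside a protein-coding gene body (GENCODE M21) and over 10 kb and at most 50 kb from the nearest TSS. Each transcript that a protein-coding gene has, coding or not, contributed its 5′ end as a TSS. Of the 3761 peaks in the list, 614 (16.3%) met this rule. They are called genic distal peaks below. The rule used positions only, and no measure of signal.

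The CP cells were cardiac progenitor cells of wild type genotype (WT in the labels), which were derived from mouse embryonic stem cells and taken on day 5. CUT&RUN, in which an antibody tethers a nuclease that releases the DNA around the bound protein, was done with anti-CHD7 and with IgG. A further group was labelled input. Each group had 3 biological replicates, 9 libraries in all. The list is joint for the 3 anti-CHD7 replicates and gives a start and an end for each peak, with no height, so the depth of the libraries and the spread between replicates are unknown here and every interval covers counting error only. Because the list holds positions and no expression, the cell type could not be checked against its markers.

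CHD7 is an ATP-dependent chromatin remodeller of the CHD family, which moves nucleosomes and is found at promoters and at many enhancers. Mutation of the human gene causes CHARGE syndrome, in which heart defects are common. Enhancers often lie in introns, either of the gene they regulate or of a neighbour, so a peak inside a gene does not name its target. Where the nearest TSS to a peak named below belonged to a gene other than its host, that gene is given.

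The central 200 bp of 6 genic distal peaks are printed as examples, picked by gene, by width or by motif match and not at random. All are from GRCm38 (mm10) and all lie in introns. Those in Fgf10, a growth factor gene of the second heart field, and in Tbx5, a T-box transcription factor gene of the inflow tract and left ventricle, are shown because the study examined those genes. Meis2, which encodes a homeodomain factor, held the widest genic distal peak among the cardiac transcription factor genes, and Prickle1, a planar cell polarity gene, held the widest of all. Lama2 and Maml3 were chosen after their values were seen, as further listed genes with a GATA match. Capitals mark matches to any of the 18 motifs listed with the motif results, where MEF2 and CTCF are given by name and the others by their letters.
Fgf10, chr13:118759045-118759244, forward strand: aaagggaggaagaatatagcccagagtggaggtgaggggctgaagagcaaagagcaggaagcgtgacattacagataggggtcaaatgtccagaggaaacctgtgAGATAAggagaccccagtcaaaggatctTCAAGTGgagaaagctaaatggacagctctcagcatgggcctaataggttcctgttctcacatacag
Tbx5, chr5:119847882-119848081, forward strand: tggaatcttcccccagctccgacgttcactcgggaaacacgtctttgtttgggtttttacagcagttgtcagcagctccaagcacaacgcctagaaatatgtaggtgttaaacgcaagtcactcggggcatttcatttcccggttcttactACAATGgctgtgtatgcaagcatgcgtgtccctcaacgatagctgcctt
Meis2, chr2:116010773-116010972, forward strand: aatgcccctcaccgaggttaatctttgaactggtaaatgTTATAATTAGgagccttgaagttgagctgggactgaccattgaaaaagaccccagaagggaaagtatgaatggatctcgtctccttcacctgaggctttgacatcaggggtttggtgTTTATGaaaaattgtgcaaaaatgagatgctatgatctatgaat
Prickle1, chr15:93538380-93538579, forward strand: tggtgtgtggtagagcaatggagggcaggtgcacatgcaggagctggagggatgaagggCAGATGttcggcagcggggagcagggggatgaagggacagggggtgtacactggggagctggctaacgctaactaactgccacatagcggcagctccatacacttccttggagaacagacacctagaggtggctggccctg
Lama2, chr10:27013021-27013220, forward strand: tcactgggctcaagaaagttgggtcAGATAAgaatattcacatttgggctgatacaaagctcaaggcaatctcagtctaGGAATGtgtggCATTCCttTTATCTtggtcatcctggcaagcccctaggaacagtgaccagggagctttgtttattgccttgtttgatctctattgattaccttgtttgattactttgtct
Maml3, chr3:51759601-51759800, forward strand: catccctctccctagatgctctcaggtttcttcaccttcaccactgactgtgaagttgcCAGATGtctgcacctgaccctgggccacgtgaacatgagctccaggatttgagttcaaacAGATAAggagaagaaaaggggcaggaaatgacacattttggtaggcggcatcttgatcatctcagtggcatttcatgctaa

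In the Fgf10 window a GATA match began at base 106 and an NKX2 match at base 134, counted from the left end of the printed window. The Tbx5 window held 1 match, to the SOX motif at base 152, and neither a GATA match nor a T-box match. The Meis2 window held a MEF2 match at base 40 and a caudal match at base 157, both on the reverse strand. In Lama2, which encodes a laminin chain of the muscle basement membrane, 2 GATA matches at bases 26 and 99 flanked 2 TEAD matches at bases 80 and 91. Maml3, which encodes a Notch coactivator, had an E-box match at base 60, on the reverse strand, and a GATA match at base 120. The Prickle1 window held an E-box match at base 60, on the reverse strand.

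To find whether genic distal peaks were dense or sparse, their number was divided by the sequence that could have held them. The part of the genome inside protein-coding genes and 10 to 50 kb from a TSS measured 363 Mb, or 13.7% of the genome without gaps. This gave 1.69 peaks per Mb (exact Poisson 95% interval 1.56 to 1.83). Intergenic sequence at the same distance held 593 peaks in 376 Mb, or 1.58 per Mb (1.45 to 1.71). The ratio of 1.07 had a 95% interval of 0.956 to 1.2 and did not pass the 2-sided exact conditional binomial test of the rates (adjusted P = 0.227). When only the 5′ ends of protein-coding transcripts were taken as TSSs, the ratio was 1.15 and the same exact test passed (adjusted P = 0.0101). Within genes the density differed between the classes of distance. Genic sequence over 50 kb from a TSS held 1.06 peaks per Mb (0.938 to 1.19), and the density of genic distal peaks was 1.59 times this (interval 1.38 to 1.85, exact test, adjusted P = 1.59e-10). Genic sequence 1 to 10 kb from a TSS held 2.17 per Mb (2.01 to 2.33), for a ratio of 0.78 (0.7 to 0.87, exact test, adjusted P = 8.63e-06). The genic classes also differed in their host genes. Median host length was 48664.5 bp at 1 to 10 kb, 134258 bp for genic distal peaks and 372324 bp over 50 kb. The part of gene length in the densities was not tested. All P-values here were adjusted by the Benjamini-Hochberg method over the 3 comparison classes.

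**Figure D1:**
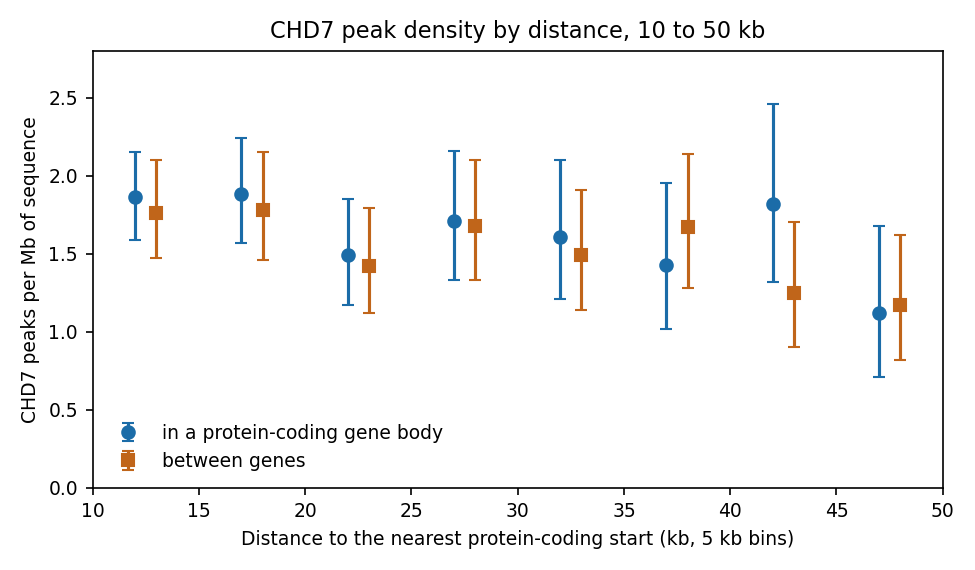
CHD7 peaks per Mb (vertical axis) in 5 kb bins of distance to the nearest protein-coding TSS (horizontal axis), inside protein-coding genes (circles) and between genes (squares), with exact Poisson 95% intervals. The intervals of the genic and intergenic points overlap in each bin, and the nearest genic bin stood at 1.86 per Mb and the farthest at 1.12.

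Within the 10 to 50 kb range the genic density was 1.86 peaks per Mb (1.59 to 2.15) at 10 to 15 kb and 1.88 (1.57 to 2.24) at 15 to 20 kb. It was 1.12 per Mb (0.708 to 1.68) at 45 to 50 kb, and the bins between ranged from 1.43 to 1.82. The bins held between 23 and 176 peaks, and the intervals of neighbouring bins overlapped throughout. The eligible sequence itself was unevenly spread, with 94.8 Mb at 10 to 15 kb and 20.6 Mb at 45 to 50 kb, and the peaks had a median distance of 20252.5 bp (quartiles 14067 and 30606 bp). At the near limit the peak in a UTR of B230219D22Rik lay 10007 bp from a TSS and that in Adam19, which encodes a membrane metalloprotease, 10054 bp, while the first peaks left out, in Aldh18a1 and Smap2, lay at 9941 and 9938 bp. At the far limit the peaks in Ppp2r5c, a phosphatase 2A subunit gene, and Rbm20, which encodes a splicing factor of titin, lay at 49821 and 49717 bp, and the first left out, in Bmp7 and Pex14, at 50094 and 50222 bp.

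By the annotation, 563 of the 614 peaks (91.7%, Wilson 95% interval 89.2 to 93.6) had their midpoint in an intron, outside every annotated exon of the protein-coding genes there, 28 in a UTR, 20 in coding sequence and 3 in a noncoding exon. Introns made up 94% of the eligible sequence. Per Mb, the introns held 1.65 peaks (1.52 to 1.79), UTRs 2.57 (1.71 to 3.71) and coding sequence 2.41 (1.48 to 3.73). The intervals of UTRs and of coding sequence both overlapped that of introns. No test was made between these places.

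**Figure D2:**
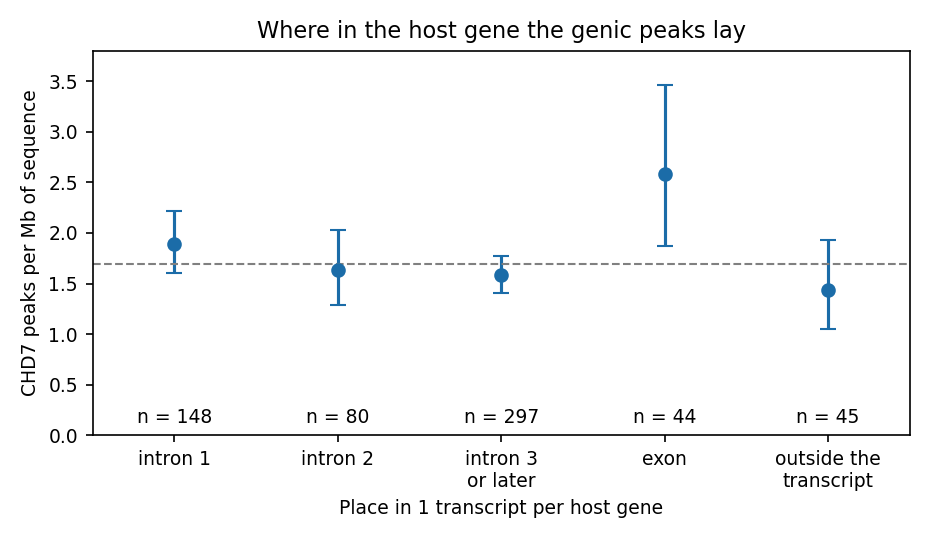
CHD7 peaks per Mb of eligible sequence (vertical axis) by place in 1 representative transcript of the host gene (horizontal axis), with exact Poisson 95% intervals, n the number of peaks and a dashed line at 1.69 per Mb for all of the sequence. Exons stood highest at 2.58 per Mb, and the 3 intron classes ranged from 1.58 to 1.89.

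With 1 representative transcript per gene, 148 peaks lay in intron 1, 80 in intron 2, 297 in a later intron and 44 in an exon. The remaining 45 lay in the gene body beyond the ends of that transcript. Intron 1 held 1.89 peaks per Mb (1.6 to 2.22), intron 2 held 1.63 (1.29 to 2.03) and later introns 1.58 (1.41 to 1.77), so that the intervals of the 3 intron classes overlapped. Exons held 2.58 per Mb (1.87 to 3.46), above the interval of the later introns. The Fgf10 peak lay in intron 1 of 2. The Tbx5 peak lay in intron 6 of 8.

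The host gene was usually, but not always, the gene with the nearest TSS. The nearest TSS belonged to a host gene for 536 peaks (87.3%, 84.4 to 89.7) and to another gene for 78 (12.7%, 10.3 to 15.6). For 173 peaks (28.2%) the nearest TSS was one of the host's own but lay downstream of the peak, as for an alternative internal start. In all, 397 peaks (64.7%, 60.8 to 68.3) lay downstream of the nearest TSS and 217 upstream. Although each peak was within 50 kb of some TSS, 308 (50.2%) lay over 50 kb from the 5′ end of their gene body, and 30 had no TSS of their own host within that distance. A host was assigned uniquely to 599 peaks, and 15 lay in 2 overlapping genes.

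Several peaks in well known genes were among those closer to another gene. The peak in Jarid2, which encodes a component of the PRC2 repressor complex, lay 75459 bp from the nearest Jarid2 TSS and 30902 bp from that of Dtnbp1. That in Myh11, the smooth muscle myosin heavy chain gene, lay in coding sequence 69531 bp from a Myh11 TSS and 38259 bp from one of Nde1. In Slc8a2, a sodium-calcium exchanger gene, the peak was in a UTR, 30046 bp from its own TSS and 14696 bp from that of Meis3. In Ldb3, which encodes a Z-disc protein, the distances were 36548 bp to its own TSS and 17645 bp to that of 9230112D13Rik. In Cacnb4, a calcium channel subunit gene, the peak lay 84814 bp from its own TSS and 46994 bp from that of Arl5a. For Ctcf, the insulator protein gene, the TSSs of Ctcf and Agrp were nearly equally far, at 15918 and 15591 bp.

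Width did not separate the genic distal peaks from the other classes. Genic distal peaks had a median width of 694.5 bp (quartiles 533 and 1047, range 363 to 2716), against 706 bp for intergenic peaks at the same distance, 660 bp for genic peaks over 50 kb and 694 bp for genic peaks at 1 to 10 kb. Of the 614, 302 (49.2%) were wider than the median of 703 bp over all peaks. The difference from the intergenic class was -1.24 percentage points (Newcombe 95% interval -6.85 to 4.39), from the genic class over 50 kb 3.93 points (-3.18 to 10.9) and from the genic class at 1 to 10 kb 0.419 points (-4.93 to 5.77). None passed the 2-sided Fisher's exact test (adjusted P = 0.913 for each).

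GC content depended on how much of the peak was read. In the central 200 bp the median was 47.8%, compared with 42.5% for 200 bp windows laid end to end over the eligible sequence. The share of peaks over the median of all peaks, 48.5%, was 44.1% (40.3 to 48.1), against 39.8% for the intergenic class, 37.2% for genic peaks over 50 kb and 48.5% for genic peaks at 1 to 10 kb, and none of the 3 differences passed Fisher's exact test (adjusted P = 0.13 for each). Over the whole peak the genic distal peaks differed from both genic neighbours. By the same exact test they were 9.94 points (3.1 to 16.4) above the genic peaks over 50 kb (adjusted P = 0.00804) and 12.8 points below the genic peaks at 1 to 10 kb (53% of which were above the median, adjusted P = 9.26e-06), with no such difference from the intergenic class (-1.93 points, -7.46 to 3.61, adjusted P = 0.52).

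Genic distal peaks seldom lay near another CHD7 peak. The nearest other peak was a median of 150770 bp away, and 25 of 614 (4.07%, 2.77 to 5.94) had one within 10 kb. The shares in the 3 comparison classes, 4.89%, 6.2% and 6.16%, were not separated from this by Fisher's exact test (adjusted P from 0.26 to 0.578). With a limit of 5 kb, however, the share among genic peaks over 50 kb was 5.47%, 3.68 points higher than among the genic distal peaks (exact test, adjusted P = 0.0131). This difference did not pass the exact test at 20 kb (adjusted P = 0.17), or at 10 kb among peaks wider than the median (adjusted P = 0.302). A close pair can count through both of its peaks. The peaks are then not independent, and the P-values here can be too small. In the host genes with more than 1 genic distal peak there were 57 pairs of neighbours, a median of 59.2 kb apart, and 9 pairs were at most 10 kb apart. Pairs were counted per gene, so 1 pair, 60.4 kb apart in Stard13 and the overlapping Gm42906, counted in both. The widest spacing, 1382 kb, was within the long annotated body of Gm20388. Among the closest pairs were those in Nav2 (1.3 kb), Tmcc1 (4.21 kb) and Secisbp2 (4.23 kb), of which Nav2 and Tmcc1 were named after their values were seen.

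Starts of genes that do not encode proteins were rarer at genic distal peaks than at the intergenic peaks of the same distance. A TSS of such a gene lay within 1 kb of 10 genic distal peaks (1.63%, 0.887 to 2.97) and of 35 intergenic peaks (5.9%, 4.27 to 8.1). The difference of -4.27 points (-6.59 to -2.16) passed Fisher's exact test (adjusted P = 0.000296). The shares of 0.73% for genic peaks over 50 kb and 2.47% for genic peaks at 1 to 10 kb were not separated from it by the exact test (adjusted P = 0.361 for each). With lncRNA classes alone, by the same exact test, 2 genic distal peaks had such a start (0.326%), against 3.37% of the intergenic peaks (adjusted P = 0.000135) and 1.64% of the genic peaks at 1 to 10 kb (adjusted P = 0.0409). Of the eligible genic sequence 1.77% lay within 1 kb of a noncoding TSS, and of the intergenic sequence at the same distance 3.82%. These shares of sequence were added after the data had been seen, and their part in the difference was not tested.

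Motifs were searched in the central 200 bp on both strands, and a window counted once however many matches it held. They were the letters AGATAA for the GATA factors, and those for T-box (GGTGTGA), NKX2 (TNAAGTG), LIM homeodomain (CTAATG), caudal (CATAAA), TEAD (CATTCC), SP/KLF (GGGCGG), AP-1 (TGANTCA), forkhead (TGTTTAC), SOX (ACAATG), an E-box of type 1 (CATCTG) and of type 2 (CAGCTG), MEIS (TGACAG), TCF/LEF (CTTTGAT), nuclear receptor (AGGTCA) and ETS (CCGGAA), with MEF2 and CTCF by their usual longer consensus. No motif is contained whole in the fixed letters of another, although matches of different motifs can share bases. A match is a description of letters and not a bound site.

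No motif distinguished the genic distal peaks from the other classes. Of 54 comparisons, 18 motifs against 3 classes, 0 passed Fisher's exact test after adjustment over all of them (0%, lowest adjusted P = 0.84), and 2 had an unadjusted P under 0.05. These were CTCF, at 0.651% against 2.05% of genic peaks at 1 to 10 kb, and SOX, at 11.7% against 16.8% of genic peaks over 50 kb. GATA, a site of the GATA4 to GATA6 factors of the heart, was searched only as AGATAA. Other forms, such as AGATAG, were not counted. AGATAA was found in 79 of 614 windows (12.9%, 10.4 to 15.7), against 13.8% of intergenic, 17.9% of deeper genic and 12.6% of nearer genic windows. Of these windows 13 held 2 matches and 66 held 1. T-box matches were found in 2.44% (1.49 to 3.99), NKX2 in 12.2% (9.86 to 15) and MEF2 in 1.3% (0.662 to 2.55).

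The share of eligible sequence with a match depended on its GC content. Over all 1816081 windows laid end to end, GATA was matched in 12.7%, close to the genic distal peaks. When those windows were weighted to the GC content of the peaks, the share fell to 9.6%, below the interval of the peaks. In the same way caudal matches, found in 9.45% of peak windows (7.38 to 12), were in 15.2% of all windows and in 10.8% at equal GC content, and SP/KLF matches, in 3.91% (2.64 to 5.75), were in 1.95% and 3.26%. For the other motifs the interval of the peaks contained the weighted share, most narrowly for LIM homeodomain (8.96%, lower bound 6.95, against 6.99%). GATA was thus the 1 motif of 18 whose interval, at the 95% level, missed the weighted share. Whether counting error accounts for this was not tested. The weighting was added after the data had been seen and has no test. It was made for the sequence of this class only, and the GATA shares of the other classes of peaks ranged from 12.6% to 17.9%.

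**Figure D3:**
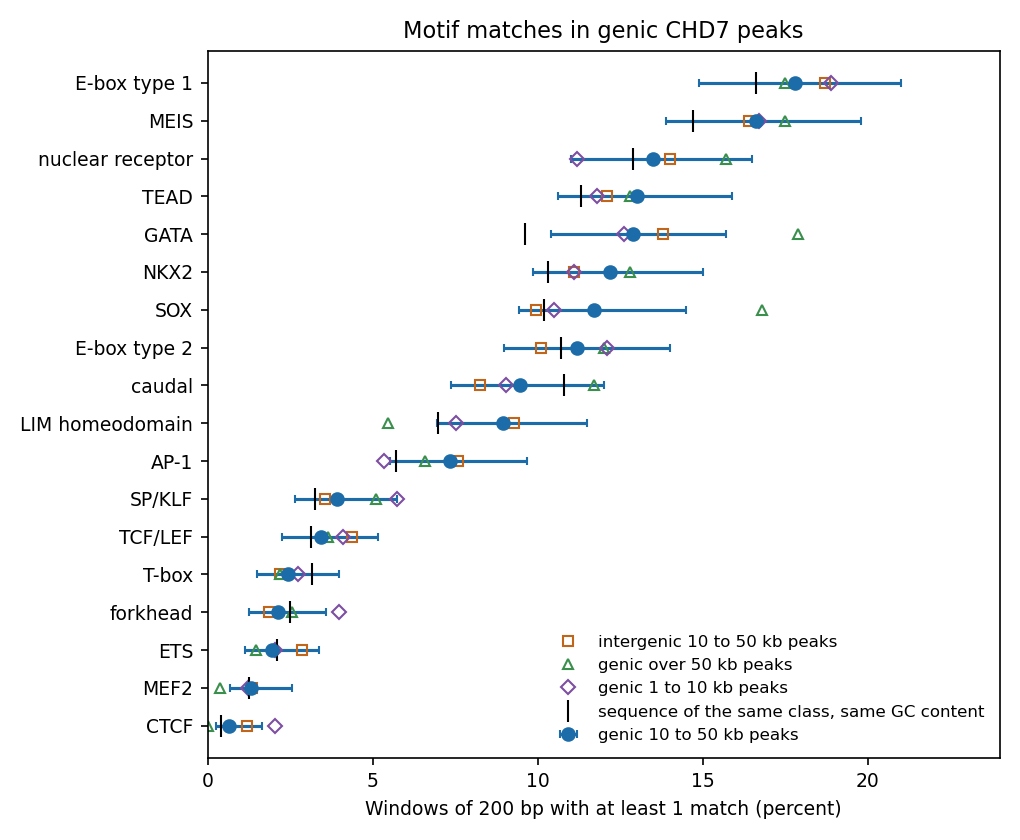
Percent of 200 bp windows with at least 1 match (horizontal axis) for each of 18 motifs (vertical axis). Filled circles are the 614 genic distal peaks with Wilson 95% intervals, open symbols the 3 comparison classes, and black bars the eligible sequence weighted to the GC content of the peaks. For GATA the peaks stood at 12.9% and the weighted sequence at 9.6%.

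The 614 peaks lay in 572 host genes. Of the 10012 protein-coding genes with any eligible sequence, these were 5.71%, which is the background for the counts below. Most hosts (520) held 1 genic distal peak, 48 held 2, 3 held 3 and 1 held 4. The share of hosts followed the length of eligible sequence. It was 1.02% (0.726 to 1.44) of genes with up to 10 kb, 4.61% (3.83 to 5.54) with 20 to 40 kb and 20.1% (17.9 to 22.5) with over 80 kb. The hosts had a median of 68168 bp of eligible sequence, the other genes 18544 bp. Peaks at a gene's own promoter were uncommon in hosts and in the other genes alike. A peak lay within 1 kb of an own TSS for 23 of the 572 hosts (4.02%), 321 of the 9440 genes without a genic distal peak (3.4%) and 3.44% of all these genes. Another CHD7 peak that did not meet the rule lay in the body of 104 hosts (18.2%). No share over all genes was taken for this count, so it describes the hosts only. The hosts were also longer, with a median gene length of 124558 bp against 46401 bp for the other genes.

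The genes with the most genic distal peaks were mostly long. Gm20388 had 4, but its annotated body is a span of 4434882 bp that runs over many other genes, and 2 of the 4 lay also in Ankrd11 or Galnt2. The other 2 were nearest to the TSSs of Cbfa2t3 (37974 bp) and Cdh15 (25188 bp). Limch1, which encodes an actin-binding protein, Dennd1a, an exchange factor gene for Rab35, and Megf11, which encodes a transmembrane protein with EGF repeats, had 3 each. In Limch1 the peaks were 774, 1829 and 1664 bp wide, and the latter pair lay 6.09 kb apart in intron 3. The Dennd1a peaks, 1506, 1719 and 389 bp wide, lay in introns 19, 4 and 2, and the Megf11 peaks, 1940, 966 and 531 bp wide, in introns 1, 5 and 7. Secisbp2, which encodes a selenoprotein synthesis factor, and Mthfd1, a folate enzyme gene, had 2 peaks each in only 7935 and 17584 bp of eligible sequence.

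The widest genic distal peaks were in Prickle1 (2716 bp, chr15:93537122-93539837), Grik4 (2694 bp), a kainate receptor gene, Gna12 (2590 bp), a G protein alpha subunit gene, Grm8 (2529 bp), a glutamate receptor gene, and Hs3st3b1 (2471 bp), which encodes a heparan sulphate sulphotransferase. All 5 lay in introns, between 10567 and 34662 bp from the nearest TSS.

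Lists of genes for the tissue were then counted against the 5.71% background and against the share of all genes with like amounts of eligible sequence. The second share is given because the 483 listed genes with any eligible sequence had a median of 40000 bp of eligible sequence, compared with 20266 bp for all genes. Over the 14 lists together 48 of the 483 genes (9.94%) held a genic distal peak, where 8.53% of all genes with the same amount of sequence did. The second share was added after the data had been seen. No list was tested, and the Wilson interval of each contained the second share.

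Among cardiac transcription factors, 5 of 31 genes held a peak (16.1%, 7.09 to 32.6, with 9.73% for genes of like territory). Tbx5 had a peak of 894 bp at chr5:119847535-119848428, 11827 bp downstream of its nearest TSS. Meis2 had one of 1208 bp in intron 7. Mrtfa and Mrtfb, which encode actin-regulated coactivators of SRF, had 1 each, of 532 and 407 bp.

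In signalling, 2 of 25 FGF pathway genes were counted (8%, 2.22 to 25, with 6.59%). The Fgf10 peak, 1093 bp wide at chr13:118758599-118759691, lay 44446 bp downstream of the Fgf10 TSS, near the far limit of the range. Fgfr2, a receptor gene for FGF10, counted only through an annotated body of 2960900 bp, and both of its peaks lay in introns of other genes, Oat and Lhpp. Of WNT pathway genes, 5 of 49 held a peak (10.2%, 4.44 to 21.8, with 7.34%). These were Prickle1 and Prickle2 of planar cell polarity, Ror1, a WNT5A receptor gene (712 bp, intron 1), Nkd1, which encodes an inhibitor that binds dishevelled (815 bp, intron 3), and Tcf7l2, a nuclear effector gene of β-catenin (642 bp, intron 4). Of BMP and TGF-β genes 2 of 41 held one (4.88%, 1.35 to 16.1, with 7.33%), Smad1, the BMP signal transducer (716 bp, intron 1), and Smurf1, which encodes a ubiquitin ligase for SMAD proteins (732 bp, intron 1). Of Notch, Hedgehog and retinoic acid genes 2 of 32 did (6.25%, 1.73 to 20.1, with 7.03%), Maml3 (595 bp) and Gli3, a Hedgehog transcription factor gene (576 bp).

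Among structural genes, the cardiac ion channel and calcium list had the highest share, 9 of 52 genes (17.3%, 9.38 to 29.7, with 9.68% for genes of like territory). Itpr1, which encodes a calcium release channel of the endoplasmic reticulum, had one of 1831 bp, and Ank2, which encodes the membrane adaptor ankyrin-B, one of 1656 bp. Others were Cacnb4, Kcnj12, Kcnq1, Ryr3, Slc8a2 and Stim1. Of sarcomere and contractile genes 4 of 35 held a peak (11.4%, 4.54 to 26, with 7.38%), with widths of 1164 bp in Ldb3, 874 bp in Myh11, 617 bp in Vcl, the vinculin gene, and 434 bp in Mylk, the myosin light chain kinase gene. Of matrix and adhesion genes 8 of 76 did (10.5%, 5.43 to 19.4, with 10.5%), among them the cadherin genes Cdh2 (1 peak of 1224 bp) and Cdh4 (2 peaks of 540 and 546 bp), the integrin gene Itga9 (2 peaks of 398 and 426 bp) and the collagen gene Col18a1 (1 peak of 1243 bp). Of axon guidance genes 4 of 50 did (8%, 3.15 to 18.8, with 10.6%), namely Slit3, a ligand gene for ROBO receptors (722 bp), the semaphorin genes Sema6a (603 bp) and Sema6d (458 bp), and the netrin receptor gene Unc5c (487 bp).

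Of chromatin regulators, 6 of 55 held a peak (10.9%, 5.1 to 21.8, with 7.27%). They were Arid1a, a BAF complex subunit gene (1458 bp, intron 4), Hdac4, a histone deacetylase gene (1284 bp, intron 2), Jarid2 (1227 bp), Ctcf (1078 bp, intron 2), Chd9, a gene of the same remodeller family as Chd7 (700 bp, intron 20), and Nsd2, a histone H3K36 methyltransferase gene (604 bp, intron 2). Among pluripotency genes 1 of 11 did (9.09%, 1.62 to 37.7, with 5.42%), Esrrb, an orphan nuclear receptor gene (580 bp). No peak was found in 18 endothelial and hemogenic regulators (upper bound 17.6%, with 7.89% for genes of like territory), 10 SOX and neural crest factors (27.8%, with 8.97%) or 6 primitive streak and mesoderm genes (39%, with 4.36%).

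**Figure D4:**
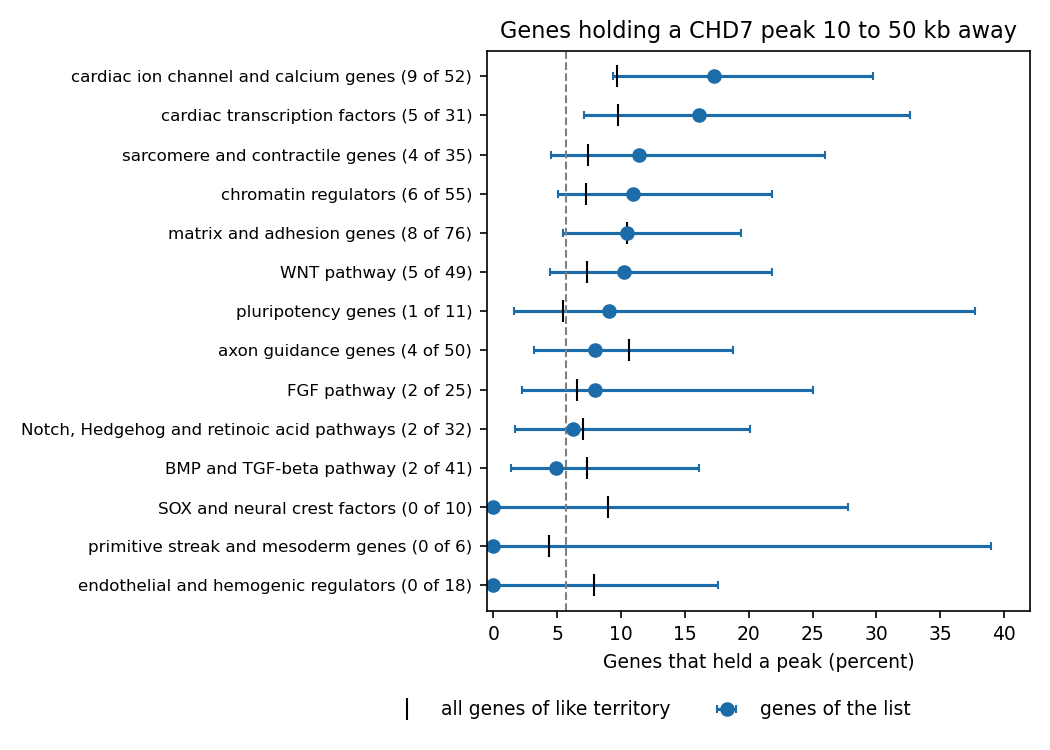
Percent of genes with eligible sequence that held at least 1 genic distal peak (horizontal axis) for 14 gene lists (vertical axis, with the counts), with Wilson 95% intervals. The dashed line is the 5.71% of all such genes and the black bars the share of all genes with like amounts of eligible sequence. Each interval contains its black bar.

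Across chromosomes the density ranged from 1.14 peaks per Mb on chromosome 3 (0.717 to 1.73) to 2.49 on chromosome 2 (1.94 to 3.13), leaving out the sex chromosomes. Chromosome 2 held 71 genic distal peaks in 28.6 Mb of eligible sequence, and chromosome 9 held 47 in 19.3 Mb (2.43 per Mb, 1.79 to 3.24). The X chromosome stood apart. It had 16.4 Mb of eligible sequence, 4.53% of the whole, and 1 peak (0.0608 per Mb, 0.00154 to 0.339), a peak of 405 bp in Frmpd4. Over all classes the X chromosome held 14 of the 3761 peaks. The Y chromosome had 1.78 Mb of eligible sequence and no genic distal peak, which allows up to 2.07 per Mb.

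**Figure D5:**
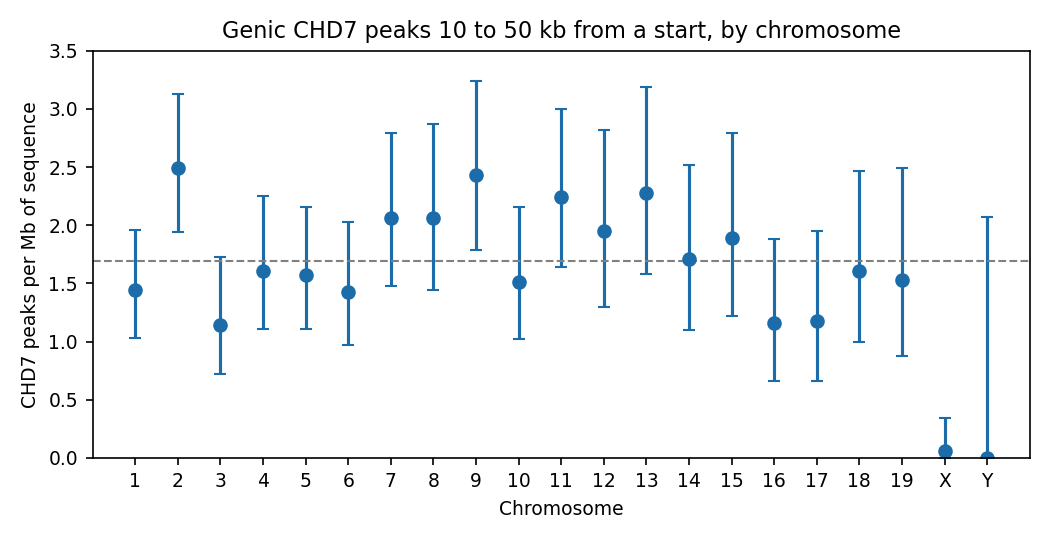
Genic distal peaks per Mb of eligible sequence (vertical axis) on each chromosome (horizontal axis), with exact Poisson 95% intervals and a dashed line at 1.69 per Mb for the whole. Chromosome X, with 1 peak, has an interval that ends at 0.339 per Mb, below the interval of each autosome.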

How the data were processed

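CUT&RUN was measured with anti-CHD7, IgG and input in 3 biological replicates each. The authors trimmed reads with fastp 0.20.1, aligned them to mm10 with bwa 0.7.17.4 and removed duplicates by unique molecular identifiers. They called peaks in each sample with MACS2 2.1.2 against IgG and kept peaks overlapping between replicates. A kept peak did not need to be called in all 3. The deposited file holds positions only, a start and an end in bp per peak, with no other values. The calling threshold and the joining of peaks are not given in the sources used here.

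Starts were read as counted from 0 and are printed from 1. Distances run from the peak midpoint to GENCODE M21 TSSs, and sequence is from RefSeq GRCm38.p6. Eligible sequence is each base that meets the same rule. Shares in the classes were tested by Fisher's exact test (2-sided), and rates by an exact conditional binomial test (2-sided), with Benjamini-Hochberg adjustment at 0.05 within each feature (3 tests) and over all motifs (54 tests). Named genes were hosts with the most peaks, listed genes (at most 4 a list, with others of a list given where all are counted), hosts of the 5 widest peaks, those at the limits, and Fgf10 and Tbx5. The classes, lists and motifs were chosen with earlier results of these data known. Functions were tested on simulated data. IgG and input libraries, reads and expression lists were not used here. The software was scipy 1.17.1 and statsmodels 0.14.6 for tests, numpy 2.4.6 and pandas 2.3.3 for tables, and matplotlib 3.10.9, under Python 3.11.15. Some items are not reported here.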

Additional observations from a re-analysis of the deposited data

How the results depend on the processing

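The list is joint for the 3 replicates and has no score, so neither leaving out a replicate nor a stricter threshold was possible. The peaks wider than the median were taken as a further setting, and 302 of them met the rule. Whether wider peaks are the stronger ones is unknown here. No paired analysis was possible because the 3 anti-CHD7 replicates form 1 list and the other groups have none. Other sets of TSSs gave between 610 and 726 peaks, but with 1 transcript per gene only 402 of 719 were among the 614. Of 66 alternative values, 54 were classed as unchanged. For differences and ratios this meant the same direction and side of the threshold. For counts of peaks and of passing motif comparisons, which have no direction, it meant a like number. Most of the 54 were differences or ratios that passed neither as reported nor in the alternative. With TSSs of protein-coding transcripts only, the density ratio to intergenic sequence was 1.15. For GC content, the difference from genic peaks over 50 kb was 10.8 points in 400 bp and 9.94 in the whole peak, that from genic peaks at 1 to 10 kb was -6.95 in 100 bp, -10.7 in 400 bp and -12.8 in the whole peak, and all 5 passed. The difference in close neighbours from genic peaks over 50 kb passed at 5 kb (-3.68 points), but not at 10 or 20 kb. That in noncoding starts from genic peaks at 1 to 10 kb passed with lncRNA classes only (-1.32 points). Against the intergenic class 3 differences that passed under no setting changed sign, in width over the upper quartile (0.635 points), whole-peak GC content (-1.93) and neighbours within 5 kb (0.442). The causes were not tested. No motif passed under the 6 alternatives, with 0 to 7 of the 54 comparisons under an unadjusted P of 0.05 and lowest adjusted P from 0.176 to 1. The number of peaks limits the precision throughout.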
